A study of Mus musculus with 4 samples.

Results

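The 9 genes described are members of the JAK-STAT pathway, 6 STAT transcription factors (Stat2, Stat3, Stat4, Stat5a, Stat5b and Stat6) and 3 feedback inhibitors (Socs1, Socs3 and Cish). They were picked out by gene symbol, with earlier results of these data known, and all 9 were present among the 24421 genes listed for every library. Poly(A) RNA had been sequenced from 4 mice on a C57BL/6 background. The Usp25+/+ animals 139 and 140 carried the intact gene and the Usp25-/- animals 826 and 850 lacked it, so that n is 2 in each genotype. Usp25 encodes a deubiquitinating enzyme. The sources used here do not say which part of it the knockout removes. The labels call all 4 mice females, 8 weeks old, and the tissue colon. The mice received drinking water with 2.5% DSS (dextran sulfate sodium, which injures the lining of the colon) over 5 days, and normal water over the last 2 days. Untreated mice were not analysed here. The question is how the level of each gene differed between the genotypes after the labelled treatment.

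Cytokines that bind type I and type II receptors activate receptor-bound JAK kinases, which phosphorylate STAT proteins on a conserved tyrosine. Phosphorylated STATs pair up, enter the nucleus and switch on target genes, among them the genes of the SOCS family, whose products bind the receptors or the JAKs and shut the signal down. STAT activity is thus set largely by phosphorylation, which RNA levels do not measure, while the levels of Socs1, Socs3 and Cish are widely used as readouts of recent signalling. In mucosal tissue STAT3 carries IL-6, IL-10 and IL-22 signals, STAT6 carries IL-4 and IL-13 signals, and STAT4 carries IL-12 signals in lymphocytes.

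The libraries were at odds with their tissue and sex labels. Of 16 colon epithelial markers, 12 were listed at 0 in at least 1 library and 4 in all 4. Others of the list were present, among them the carbonic anhydrase Car4 at 193 to 399 FPKM, which made up most of the list's summed level of 198 to 402 FPKM, and the keratin Krt20 at 3.11 to 52.4 FPKM. The mucin Muc2 did not exceed 0.193 FPKM (a level scaled to transcript length, per kilobase, and to the mapped fragments of a library), whereas the lung surfactant gene Sftpc ranged from 339 to 2596 FPKM. Xist, the RNA that coats the silenced X chromosome in female cells, was at most 0.11 FPKM, while the Y-linked Ddx3y ranged from 12.7 to 30.3 FPKM. Genotype is thus the label used for the comparisons, and the levels are not offered as measurements of colon or of DSS treatment. Usp25 followed the labels, with 38.5 FPKM in 139, 16.6 in 140, 2.65 in 826 and 1.71 in 850. Library 139 stood apart: all 14 matched neutrophil markers, of 15 listed, were highest in it, with a summed level of 48773 FPKM against 955 in 140 and 2335 and 1471 in Usp25-/-. Only Camp among these 14 was listed at 0 in any library. The 9 genes and the gene lists are therefore given with and without library 139, and the part of neutrophils in the other values was not tested. In bulk tissue, fewer cells of a type and less RNA per cell cannot be told apart.

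The start regions of the inhibitors, of Stat2 and of Stat4 hold short sequences of the kinds that STAT complexes recognise. All but that of Stat4 are printed, because genes that share such a sequence can be set side by side in the values that follow. The windows came from RefSeq on GRCm38.p6 and ran from 250 bases before to 50 bases after each annotated start, and all 9 genes matched. The STAT dimer sequence TTCNNNGAA, which reads the same on both strands, was searched beside GAAANNGAAA, the core of the interferon-stimulated response element, which was searched on both strands. In the runs below, capitals mark the matches and all are written 5′ to 3′ on the strand of the gene.
Socs3: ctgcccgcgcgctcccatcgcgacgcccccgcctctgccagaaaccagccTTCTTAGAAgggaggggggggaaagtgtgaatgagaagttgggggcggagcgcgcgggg
Cish: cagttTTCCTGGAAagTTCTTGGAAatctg
Socs1: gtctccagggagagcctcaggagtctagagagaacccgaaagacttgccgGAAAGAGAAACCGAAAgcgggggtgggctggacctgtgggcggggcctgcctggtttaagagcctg
Stat2: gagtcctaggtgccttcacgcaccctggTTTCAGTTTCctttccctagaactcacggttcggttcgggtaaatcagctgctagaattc
The Socs3 run lies at chr11:117969462-117969570 on the minus strand, with its match from -154 to -146, counted back from the annotated start. The Cish run lies at chr9:107296654-107296683 on the plus strand, with matches from 1 to 9 and from 12 to 20 counted from the start, so that both fall at the first bases of the annotated transcript. The Socs1 run lies at chr16:10785554-10785669 on the minus strand, and its 2 matches, from -83 to -74 and from -77 to -68, overlap each other. The Stat2 run lies at chr10:128270248-128270335 on the plus strand, with its match from -222 to -213, where the element reads in its reverse form.

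TTCNNNGAA was present at 2 of the 9 genes, Socs3 and Cish, and at 9.55% of 27025 genes with such windows. GAAANNGAAA was present at 3 of the 9, Stat2, Socs1 and Stat4, and at 3.99% of those genes. The Stat4 match lies at the second of 2 annotated starts. In the windows of Stat3, Stat5a, Stat5b and Stat6 neither run of letters was found. A match describes the sequence and is not evidence of binding.

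The mean levels of the 9 transcripts ran from 1.49 to 122 FPKM, and an inhibitor was the most abundant of them. FPKM is scaled by length, so levels can be set side by side across genes. In order of the mean over 4 libraries (± SD, n = 4), Socs3 stood at 122 ± 49.96 FPKM, Stat3 at 57.6 ± 17.7, Stat6 at 44.4 ± 12.02 and Cish at 29.6 ± 6.59 FPKM. Below these came Stat2 at 12.2 ± 8.05 FPKM, Stat5b at 7.12 ± 2.46, Stat5a at 5.28 ± 1.91, Socs1 at 4.98 ± 1.43 and Stat4 at 1.49 ± 0.752 FPKM. The ranges of mean ± SD of neighbours in this order did not overlap between Cish and Stat2 and between Socs1 and Stat4, and overlapped in the other pairs. Socs3 nonetheless lay above Stat3 within each of the 4 libraries, and Stat6 above Cish, while Stat3 lay above Stat6 in 3 of 4 and Stat5a above Socs1 in 2 of 4. Stat3 and Stat6 together made up 77.2% to 86.1% of the summed level of the 6 STAT genes, and Socs3 made up 71.3% to 81.5% of that of the 3 inhibitors.

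**Figure D1:**
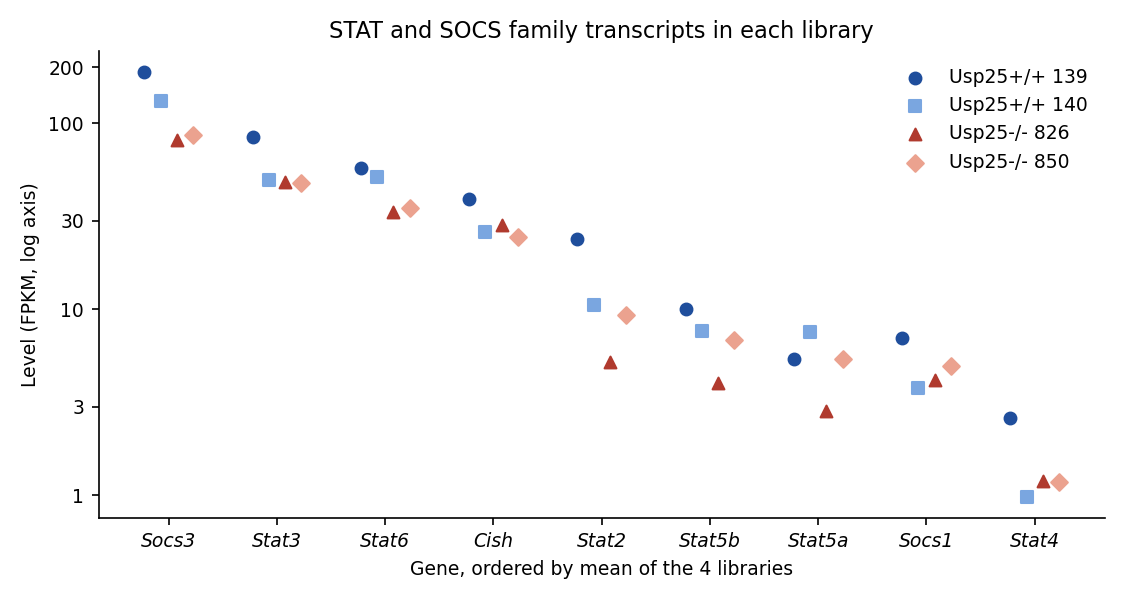
Level of each gene in FPKM on a log axis, with 1 point per library (blue circles and squares for Usp25+/+ 139 and 140, red triangles and diamonds for Usp25-/- 826 and 850). Library 139 is the highest point for every gene except Stat5a, and Socs3 and Stat6 show the widest gap between the genotypes.

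None of the 9 genes passed the test between the genotypes, although all 9 had lower fitted values in Usp25-/-. The test was limma on log2(FPKM + 1) across the 12011 genes whose mean reached 1 FPKM, with Benjamini-Hochberg adjustment. At an adjusted p of 0.05 it called 0 of the 9 genes, against 0.0% of all tested genes, with a smallest adjusted p of 0.374 among them. The test did not call Usp25 either, at a log2 fold change of -3.07 (SE 0.47) with a limma adjusted p of 0.960 and an unadjusted p of 0.00107. A gene that was not called is therefore not shown to be unchanged. At an unadjusted p of 0.05 it called 1 of the 9, Socs3, against 3.12% of tested genes in either direction and 1.01% lower in Usp25-/-. A negative log2 fold change was found for 9 of 9 genes, against 46.5% of tested genes. In 5 of 9, Stat2, Stat3, Stat5b, Stat6 and Socs3, both Usp25-/- libraries lay below both Usp25+/+ libraries, against 14.7% of tested genes, and in 0 of 9 above, against 19.0%. The genotypes thus did not overlap in 5 of 9 genes, against 33.8% of tested genes in either direction. The median log2 fold change was -0.57 over the 9 genes and 0.03 over all tested genes. Without library 139 the median was -0.46 (against -0.01), with 6 genes lower and 3 higher. Lists of cell type markers also differed between 140 and Usp25-/-. Without 139 the median was -0.92 for endothelial markers (10 of 10 lower) and -0.53 for T and NK cell markers (9 of 12). It was -0.245 for monocyte and macrophage markers (11 of 14). Those of B and plasma cell, lung epithelial and neutrophil markers were -0.17, 0.02 and 0.86. For colon epithelial markers the median was 1.52, but only 3 of the 16 genes were tested (1 lower and 2 higher). This median is the value of Tff3, a gene above 0 only in library 850 (7.25 FPKM). Tff3 thus passed the filter through a single library, and the value does not describe the colon list as a whole. The part of cell types in the 9 genes was not tested. For 1 gene in 2 against 2 libraries, the smallest p of an exact permutation test is 0.333.

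Library 139 was the highest of the 4 for 8 of the 9 genes, against 29.9% of tested genes. The exception was Stat5a, which was highest in 140. The members fell into those in which 140 also stood above the Usp25-/- libraries by more than 1.4-fold on average, which were Stat2, Stat5a, Stat5b, Stat6 and Socs3, and those in which it did not, which were Stat3, Stat4, Socs1 and Cish. That division was made after the values were seen and is given as a description.

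**Figure D2:**
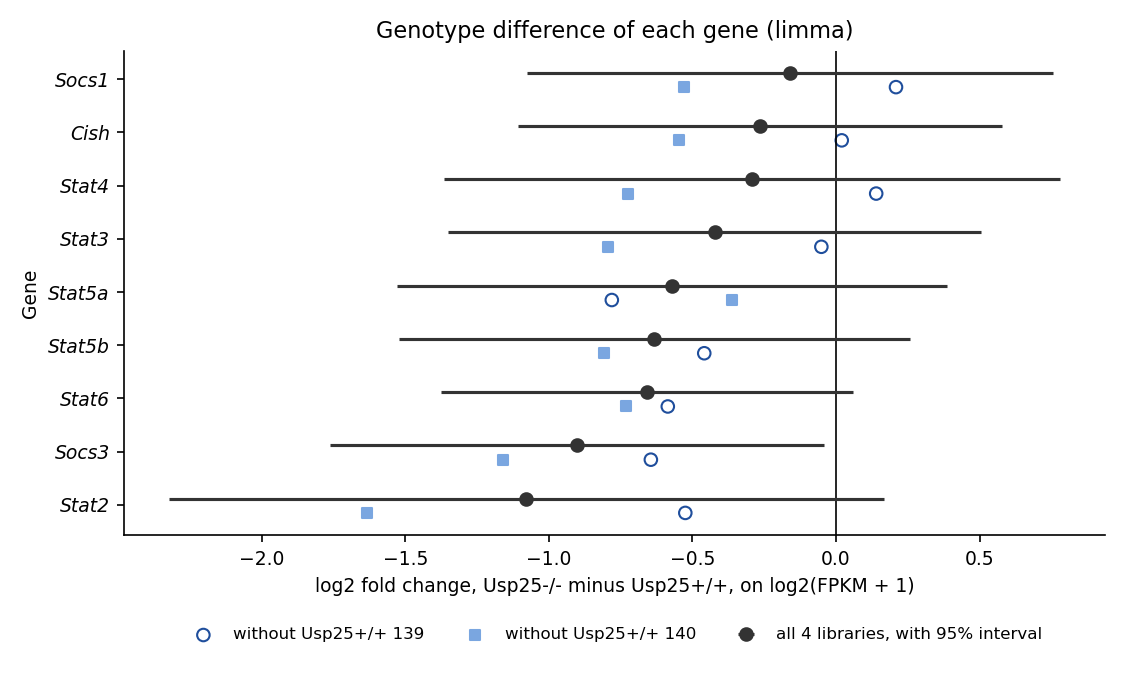
Log2 fold change of each gene (Usp25-/- minus Usp25+/+, on log2(FPKM + 1)), with filled circles for all 4 libraries, bars for the 95% limma interval, open circles for the fit without Usp25+/+ 139 and squares for the fit without Usp25+/+ 140. The interval of Socs3 (-1.76 to -0.04) is the only one that does not reach 0, and without 139 the values of Stat4, Socs1 and Cish lie above 0.

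Among the inhibitors, Socs3 had the largest difference. SOCS3 binds the gp130 receptor subunit shared by IL-6 family cytokines and limits STAT3 signalling. Socs3 measured 189 FPKM in 139, 132 in 140, 81.3 in 826 and 86.7 in 850. The groups did not overlap, and the lower Usp25+/+ library was 1.52-fold above the higher Usp25-/- library. Usp25+/+ averaged 160 ± 40.4 FPKM and Usp25-/- 84.0 ± 3.76 FPKM (SD, n = 2 each), a log2 fold change of -0.90 (SE 0.34, 95% interval -1.76 to -0.04). Its limma adjusted p was 0.960 and its unadjusted p 0.0429. Whichever library was left out the log2 fold change stayed negative, between -1.16 (without 140) and -0.64 (without 139). On NCBIM37, the assembly also called mm9, Socs3 occupies chromosome 11 from 117827393 to 117831361, minus strand.

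Cish and Socs1 did not separate the genotypes. CISH is a STAT5-induced inhibitor that blocks STAT5 docking at receptors. Cish measured 39.1 FPKM in 139, 26.1 in 140, 28.5 in 826 and 24.5 in 850. Library 139 was high and the other 3 lay close together, so that the log2 fold change of -0.26 (SE 0.33, 95% interval -1.11 to 0.58) became 0.02 without 139 and -0.55 without 140. SOCS1 inhibits JAK kinases directly and is known as a brake on interferon-gamma signalling. Socs1 measured 7.01 FPKM in 139, 3.80 in 140, 4.18 in 826 and 4.93 in 850, with 139 highest and 140 lowest. Its log2 fold change was -0.16 (SE 0.36, 95% interval -1.08 to 0.76), or 0.21 without 139 and -0.53 without 140. Both intervals reach past 0.5 log2 units in each direction, so they do not show that the genotypes were alike. Socs3 and Cish, the genes with TTCNNNGAA in the runs printed above, thus differed in whether their libraries overlapped, and that contrast between genes was not tested.

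Stat6 was the STAT gene with the widest gap between the genotypes relative to the spread within them. STAT6 is the main transducer of IL-4 and IL-13. Stat6 measured 57.4 FPKM in 139, 51.8 in 140, 33.5 in 826 and 34.9 in 850. The libraries of each genotype lay close to each other, and the lower Usp25+/+ library was 1.48-fold above the higher Usp25-/- library. Usp25+/+ averaged 54.6 ± 3.95 FPKM and Usp25-/- 34.2 ± 1.03 FPKM (SD, n = 2 each), a log2 fold change of -0.66 (SE 0.28, 95% interval -1.38 to 0.06), with a limma adjusted p of 0.960. It was between -0.73 and -0.59 whichever library was left out, the narrowest range of the 9 genes. Without 139, the library rich in neutrophil markers, it was -0.59.

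Stat2 had the largest fitted difference of the 9 and the largest standard error. STAT2 works with IRF9 in the complex that carries type I interferon signals, and its own gene is known to respond to interferon. Stat2 measured 23.8 FPKM in 139, 10.5 in 140, 5.21 in 826 and 9.28 in 850. The groups did not overlap, but 140 and 850 differed by 1.13-fold only, while 139 stood 2.27-fold above 140. The log2 fold change was -1.08 (SE 0.49, 95% interval -2.32 to 0.17), with a limma adjusted p of 0.960. It was -0.52 without 139, -1.63 without 140, -0.71 without 826 and -1.44 without 850.

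Stat5a and Stat5b encode close paralogs that transduce IL-2, IL-7, GM-CSF and growth hormone signals. Stat5b measured 9.99 FPKM in 139, 7.63 in 140, 4.02 in 826 and 6.85 in 850. The groups did not overlap, by a margin of 1.11-fold between 140 and 850. Stat5a measured 5.37 FPKM in 139, 7.51 in 140, 2.84 in 826 and 5.39 in 850, so that 850 lay just above 139 and the groups overlapped. For both genes 826 was the lowest library. The log2 fold changes were -0.63 (SE 0.35) for Stat5b and -0.57 (SE 0.38) for Stat5a. They shrank to -0.31 and -0.20 without 826, and stood at -0.96 and -0.94 without 850. Without 139 they were -0.46 and -0.78, and Stat5a stood at -0.36 without 140.

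The split of reads within the Stat5 locus is uncertain. The coding sequences of the longest Stat5a and Stat5b transcripts in GENCODE M1 were 90.7% identical over 2294 aligned bases, and 7.6% of the 100-base windows of the Stat5a transcript occurred unchanged in the Stat5b transcript. The genes lie side by side on chromosome 11 of NCBIM37, Stat5b from 100642045 to 100712038 on the minus strand and Stat5a from 100720665 to 100746483 on the plus strand. Stat3 follows from 100746412 to 100800854 on the minus strand, and its exons overlap those of Stat5a by 72 bases at their 3′ ends. Because the library preparation did not keep strand, reads from those 72 bases cannot be assigned to either gene. The ratio of Stat5a to Stat5b was 0.538, 0.985, 0.707 and 0.787 in 139, 140, 826 and 850, so that the Usp25+/+ libraries held both ends of its range.

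Stat3, the transducer of IL-6, IL-10 and IL-22, was the most abundant STAT transcript by mean level. It measured 84.2 FPKM in 139, 49.9 in 140, 48.3 in 826 and 47.9 in 850. Library 139 was high and the other 3 lay within 2 FPKM of each other, so that the groups were kept apart by a margin of 1.03-fold. The log2 fold change was -0.42 (SE 0.36, 95% interval -1.35 to 0.51), with a limma adjusted p of 0.960. It was -0.05 without 139 and -0.79 without 140.

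Stat4, which transduces IL-12 in T and NK cells, was the least abundant member. It measured 2.61 FPKM in 139, 0.984 in 140, 1.19 in 826 and 1.19 in 850. Library 139 was high, 140 lay below both Usp25-/- libraries, and the mean passed the filter of 1 FPKM with 140 under it. The log2 fold change was -0.29 (SE 0.42), or 0.14 without 139. The summed level of 16 T and NK cell markers was 36.4 FPKM in 139, 98.7 in 140, 55.5 in 826 and 104 in 850, and their median level was 1.73, 2.17, 0.75 and 2.71 FPKM in the same order. The sum was lowest in 139 and the median in 826, and 3 of the 16 genes were lowest in 139. Cd2 alone gave 11.4, 65.4, 41.5 and 46.7 FPKM of the sums in 139, 140, 826 and 850, so the order of the sums leans on that gene. The part of T and NK cells in the level of Stat4 was not tested. Of these 16, Cd5, Cd8b1, Klrd1 and Nkg7 were listed at 0 in some library.

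Ratios within a library do not depend on its total. Each inhibitor was set against the STAT genes it is known to act on or respond to, and 2 of these 3 ratios did not overlap between the genotypes. Of single tested genes 33.8% did not overlap in either direction, and no such share was taken for ratios. Socs3 stood at 2.25 and 2.64 times Stat3 in Usp25+/+ and at 1.68 and 1.81 times in Usp25-/-, without overlap. In this ratio 140 was the highest library and 139 the next. The difference in log2 ratio was -0.48, and -0.60 without 139. It was smaller without 140, since the log2 ratio was 1.17 in 139 and 1.40 in 140, against 0.75 and 0.85 in Usp25-/-. Socs1 stood at 0.122 and 0.0733 times Stat6 in Usp25+/+ and at 0.125 and 0.141 times in Usp25-/-, again without overlap, although 139 and 826 were nearly level. Stat6 by itself already separated the genotypes, whereas the levels of Socs1 overlapped. The difference in log2 ratio of Socs1 to Stat6 was 0.49, or 0.86 without 139 and 0.12 without 140. The ratio of Cish to the sum of Stat5a and Stat5b was 2.55 and 1.72 in Usp25+/+ and 4.16 and 2.00 in Usp25-/-, with overlap and with 826 highest. Here too the smallest p that an exact permutation test allows is 0.333.

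**Figure D3:**
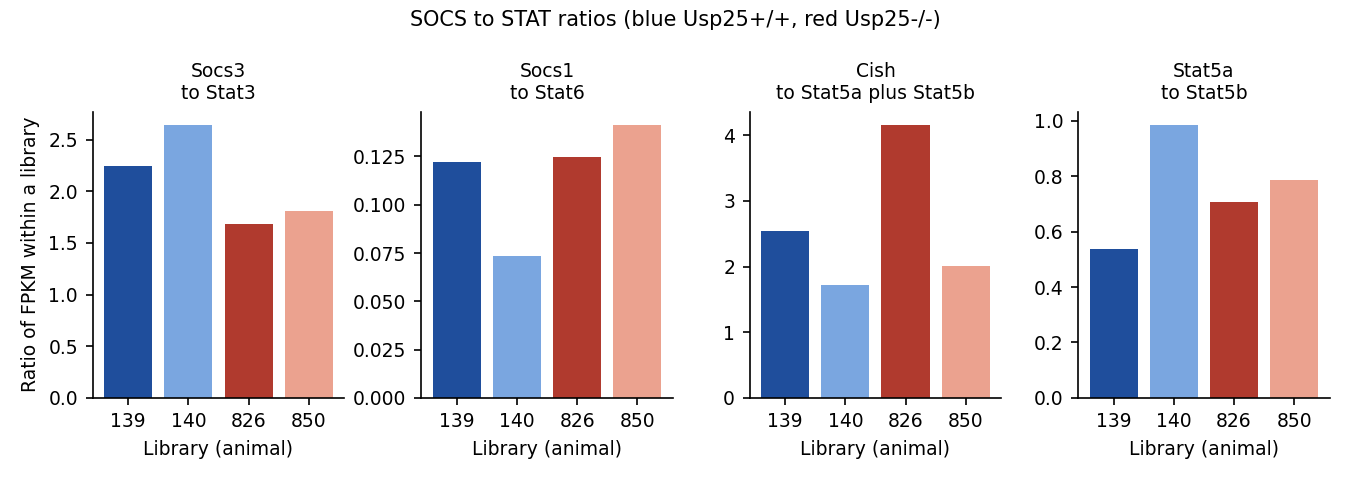
Ratio of FPKM values within each library for 4 pairs, with blue bars for Usp25+/+ 139 and 140 and red bars for Usp25-/- 826 and 850. Socs3 to Stat3 is above 2.2 in both Usp25+/+ libraries and below 1.9 in both Usp25-/- libraries, while the Stat5a to Stat5b ratio spans its whole range within Usp25+/+.

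The JAK kinases, which phosphorylate the STATs, had lower fitted values in 4 of 4 cases. None was called at an adjusted p of 0.05, and the median log2 fold change was -0.56, or -0.26 with 3 lower without 139. Tyk2, which serves interferon and IL-12 family receptors, was listed at 11.4 and 11.96 FPKM against 6.42 and 7.74 FPKM, without overlap, and its log2 fold change of -0.65 (SE 0.28) was -0.69 without 139. Jak2 was listed at 66.7 and 9.23 FPKM against 11.7 and 11.9 FPKM. Its log2 fold change was -1.04 (SE 0.89), and 0.32 without 139. Jak1 and Jak3 had log2 fold changes of -0.46 and -0.21, which were -0.02 and -0.51 without 139.

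The other SOCS genes did not share one direction. Of 5 tested, 3 were higher and 2 lower, with a median log2 fold change of 0.14, or 0.36 without 139. Socs5 was listed at 3.18 and 4.80 FPKM against 7.26 and 5.67 FPKM and Socs6 at 4.11 and 3.61 against 6.01 and 4.55 FPKM. These 2 of 5 were higher in Usp25-/- without overlap, against 19.0% of tested genes, and 1 of 5 was lower, against 14.7%. The lower one was Socs7, with a log2 fold change of -0.33 (SE 0.31). Socs4 had one of -0.56 (SE 0.53), which was -0.10 without 139. None had an unadjusted p of 0.05 or less. Of 14 other inhibitors of the pathway, 11 were lower and 3 without overlap (against 14.7% of tested genes), with a median of -0.31. The phosphatase Ptpn6 (SHP-1), which removes phosphate from JAKs and receptors in blood cells, was listed at 154 and 124 FPKM against 55.5 and 87.3 FPKM, a log2 fold change of -0.97 (SE 0.37). The ISG15 protease Usp18, which blocks the type I interferon receptor, differed by -0.99 (SE 0.98) on the log2 scale, and by 0.45 without 139. Without 139 the median of the 14 was 0.07, with 9 higher.

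Among ligands and receptors, the largest differences lay in single libraries. Of 13 tested gp130 family genes 10 were lower, with a median log2 fold change of -0.13, or 0.01 without 139. Clcf1, a ligand of this family, was listed at 4.59 and 5.24 FPKM against 49.1 and 8.19 FPKM, higher in 826 than elsewhere, with a log2 fold change of 1.86 (SE 0.81) that was 0.64 without 826. Ebi3, a subunit of IL-27 and IL-35, was listed at 55.4 and 3.95 FPKM against 2.85 and 5.55 FPKM, and its log2 fold change of -1.73 (SE 1.15) was 0.02 without 139. All 4 tested genes of the IL-12 and IL-23 group were lower and highest in 139. For Il12a, Il12b and Il12rb2 the mean reached the filter of 1 FPKM only through 139, so that count follows in part from the filter. Il12a was listed at 19.9 FPKM in 139, at 0 in 140 and at up to 0.247 in Usp25-/-, and Il23a at 100.3 and 5.23 against 8.88 and 7.20 FPKM. Without 139 their median turned from -1.06 to 0.41.

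Of 10 tested gamma chain and related genes 8 were lower, with a median log2 fold change of -0.23, or -0.05 without 139. Il15ra, which presents IL-15, was listed at 26.5 and 11.6 FPKM against 5.48 and 7.40 FPKM, without overlap. The difference was -1.33 on the log2 scale (SE 0.45), or -0.77 without 139, and the limma adjusted p was 0.960. Il13ra1, a subunit of the IL-4 and IL-13 receptor, had a log2 fold change of -0.61 (SE 0.43) that was -0.13 without 139. Il4 and Il13, the ligands that activate STAT6, were under 1 FPKM in all 4 libraries, and Il13 was listed at 0 in each. Il4 and Il13 were singled out after their values were seen. Of 10 tested beta common and homodimeric receptor genes and ligands 6 were lower, with a median of -0.35, or -0.08 without 139. The colony-stimulating factor Csf3 was listed at 118 and 1.14 FPKM against 6.43 and 2.78 FPKM, and Csf2 at 6.35 and 2.60 against 48.0 and 3.42 FPKM. Their log2 fold changes were -1.59 (SE 1.84) and 1.52 (SE 1.16), with opposite signs without 139 (Csf3, 1.31) and without 826 (Csf2, -0.22). Of 11 interferon and IL-10 family genes 10 were lower and 4 without overlap (against 14.7% of tested genes), with a median of -0.58, or 0.00 without 139. Ifng measured 8.36 FPKM in 139 and 0.456 in 140 and was listed at 0 in Usp25-/-. Il22 measured 4.55 FPKM in 139 and was listed at 0 elsewhere. Ifng, Il22 and Ifnlr1 reached the filter of 1 FPKM only through 139, as did Cntf, Il2ra and Mx1 in their lists. Counts of lower genes that include them lean on that library.

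No known target of a STAT was called by limma at an adjusted p of 0.05. At an unadjusted p of 0.05 there were 0 among STAT2 and STAT5 targets, 1 each among STAT3 and STAT4 targets (Socs3 and Furin) and 2 among STAT6 targets (Ccl11 and Alox15), against 3.12% of all tested genes. All 14 tested targets of the STAT2 pathway were lower and highest in 139, with a median log2 fold change of -1.22, and 2 did not overlap (against 14.7% of tested genes). Without 139 the median was -0.01, with 7 lower and 7 higher. Ifit1 and Ifit2, which bind viral RNA and limit its translation, differed by -2.25 (SE 1.45) and -2.25 (SE 0.96) on the log2 scale. Without 139 these differences were 0.02 and -0.80. Of 17 tested STAT3 targets, which include Socs3 itself, 14 were lower and 3 higher, with a median of -0.30, or -0.09 without 139. Of the 17, 4 were lower without overlap, against 14.7% of tested genes, and 3 of the 17 were higher without overlap, against 19.0%. The higher genes, named after their values were seen, were the growth regulator Myc, the transcription factor Cebpb and the metalloproteinase inhibitor Timp1, with log2 fold changes of 0.64, 0.51 and 0.52. Without 139 these were 0.23, 0.18 and 0.87, and Timp1 was at 0.17 without 140. Lcn2 and Saa3 were listed at 5537 and 4990 FPKM in 139 and at no more than 110 FPKM elsewhere, with log2 fold changes of -2.89 (SE 1.89) and -2.54 (SE 2.16). Without 139 these were 0.10 and 0.87. Lcn2 is also a neutrophil gene and is held by the neutrophil list.

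Of 8 tested STAT4 targets 7 were lower, with a median log2 fold change of -0.72, or -0.12 without 139. Ifng, whose levels are given above, belongs to this list too, and Ifitm3, which blocks entry of viruses, had a log2 fold change of -1.13 (SE 0.69) that was -0.18 without 139. Of 10 STAT5 targets, which include Cish, 6 were lower, with a median of -0.18, or 0.20 without 139. Ccnd1, cyclin D1, was higher without overlap at 18.0 and 19.0 FPKM against 27.1 and 32.1 FPKM. The kinase Pim1 was listed at 290 and 129 against 130 and 118 FPKM, with 139 alone standing high. Of 11 STAT6 targets, which include Socs1, 6 were lower and 5 higher, with a median of -0.05, or 0.20 without 139. The lipoxygenase Alox15 was listed at 1.28 and 0.499 FPKM against 4.48 and 5.68 FPKM, a log2 fold change of 1.71 (SE 0.36), and the chemokine Ccl11 at 5.20 and 3.02 against 0.605 and 1.12 FPKM, one of -1.43 (SE 0.38). Both had a limma adjusted p of 0.960, with unadjusted p of 0.00484 and 0.0126.

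**Figure D4:**
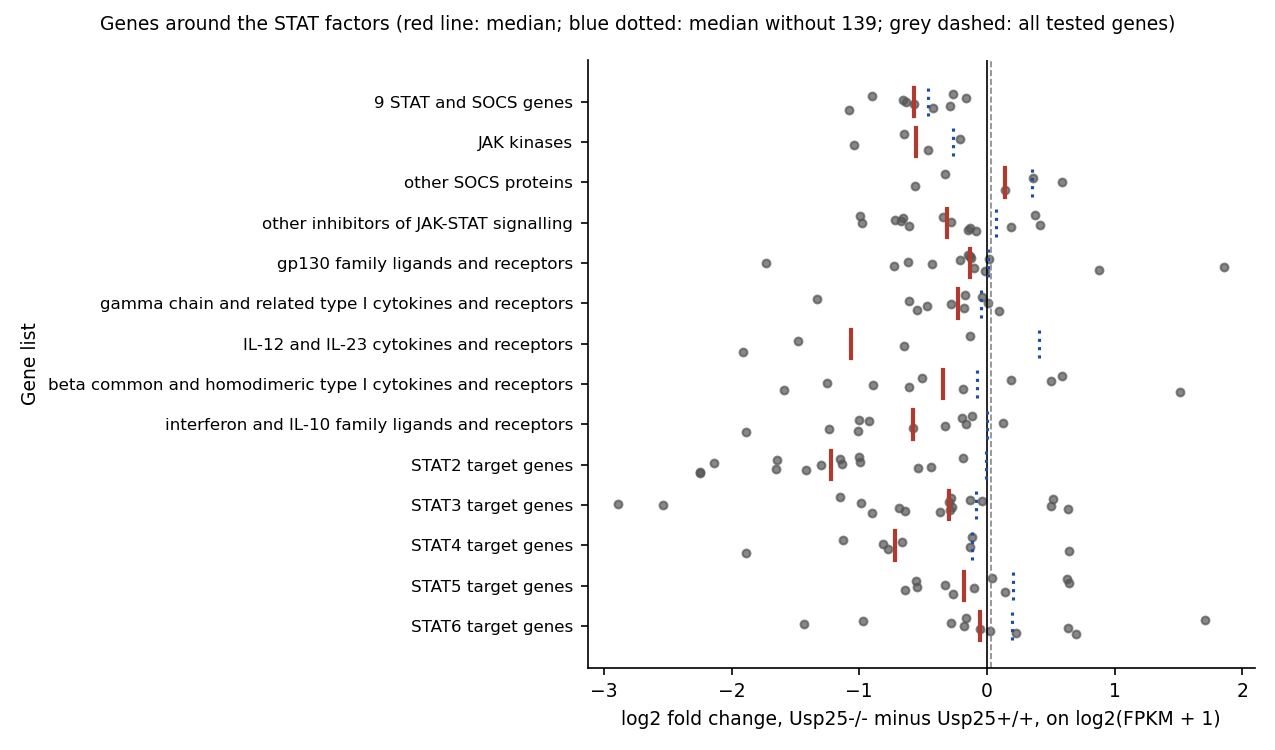
Log2 fold change of each tested gene (grey points) in the 9 STAT and SOCS genes and in 13 pathway lists, with a red line for the median of each, a blue dotted line for its median without Usp25+/+ 139 and a grey dashed line for the median of all 12011 tested genes. The 9 genes keep a median below 0 without 139 (-0.46), whereas the STAT2 targets go from -1.22 to -0.01. Cell type marker lists are not drawn, and that of endothelial markers has a median of -0.92 without 139.

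Genes whose pattern over the 4 libraries was closest to each member were found by the root mean square difference of centred log2(FPKM + 1) values, among other tested genes whose mean reached 5 FPKM (7557 or 7558 for each member). With 4 libraries many genes lie near any pattern, so the names are a description. Closest to Socs3 were the kinase gene Map3k8 (0.042 log2 units), at 47.4 and 30.8 against 19.8 and 21.7 FPKM, and the circadian gene Per1 (0.052). Closest to Stat2 were Parp12 (0.053), at 27.7 and 11.8 against 6.45 and 11.6 FPKM, and the exonuclease gene Trex1 (0.064). Closest to Stat6 were the kinase gene Gsk3a (0.028) and the phosphatase gene Ptpn1 (0.028), which is itself among the pathway inhibitors and was listed at 105 and 93.7 against 62.5 and 66.9 FPKM. Closest to Stat3 were Ap4b1 (0.016) and Ikbkg (0.021), the NEMO subunit of the IKK complex. Stat5a lay nearest Snrk (0.016) and Deb1 (0.040), and Stat5b nearest Acp2 (0.026) and Eif4ebp2 (0.034). Socs1 lay nearest Sp3 (0.018) and Arid4b (0.023), Cish nearest Klhdc10 (0.013) and Gpatch3 (0.017), and Stat4 nearest Hmgb2 (0.0085) and Gda (0.014). The added 1 shrinks the differences of Stat4, whose FPKM was 2.65-fold higher in 139 than in 140. Hmgb2 had 30.7 FPKM in 139 and 16.4 in 140, and Gda 95.4 and 52.9, which are smaller gaps by ratio. Of the 18 neighbours none was the neighbour of a second member.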

How the data were processed

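Expression had been measured in 4 libraries, 2 from each genotype, with reads of 100 bases and no strand information per the labels' protocols. Per the submitters' processing notes the tools were cutadapt, TopHat2 2.1.1 and Cufflinks, with mouse build mm9. No header or label used here gives the annotation, the filters or the unit. The authors' deposited values are read as FPKM, since Cufflinks is named and library totals differ (526652 to 565645). Whole reads could not be recovered from them, so the depth is unknown and no counting interval is given.

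Groups came from the titles. Animal numbers differ between the genotypes and pair nothing, and p-values measure the spread between these animals. The genotype test was limma 3.58.1 (R 4.3.3; eBayes, trend, two-sided) on log2(FPKM + 1), a scale that shrinks the changes of low genes. It covered the 12011 genes whose mean reached 1 FPKM, at a Benjamini-Hochberg adjusted p of 0.05, and moderated the spread across genes because each gene has 2 residual degrees of freedom. The script was tested on simulated data. The members and the 20 gene lists (250 of 251 symbols found) were chosen with earlier results of these data known. Genes named were the members, Usp25, up to 4 tested genes of each pathway list that differed most in log2 fold change in either direction, and the 2 nearest patterns of each member, passing over predicted genes. Marker genes, sex-linked genes and genes listed at 0 were named outside this rule. Positions came from GENCODE M1 on NCBIM37, promoters from RefSeq on GRCm38.p6, and the Stat5 transcripts were aligned with Biopython 1.88. Alternatives were other pseudocounts, filters, scalings and variance models, and leaving out each library.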

Additional observations from a re-analysis of the deposited data

How the results depend on the processing

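Under the 8 other pseudocounts, filters, scalings and variance models, all 70 values of the 9 genes kept their negative direction and stayed short of the threshold; Stat4 and Socs1 had none at a filter of 5 FPKM, since their means lie below it. No gene of the genome-wide table and none of the 9 passed the threshold in any setting, and the smallest adjusted p in the table was 0.0575, without 140. Genes at an unadjusted p of 0.05 numbered 375, or 569 without the filter, 227 at a filter of 5 FPKM, and 108 (without 826) to 2593 (without 140) with a library left out. Of the 9 genes 5 were lower without overlap (14.7% of tested genes), and 6 under median ratio scaling (16.5%). Leaving out a library makes separation easier for every gene: it was then 6 to 8 of the 9, with 8 without 140 and 6 without any of the others, against 22.6% (without 826) to 36.8% (without 139) of tested genes.

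With a library left out, 33 of 36 values of the 9 genes kept their direction. The exceptions were without 139: Stat4 ranged from -0.72 to 0.14, Socs1 from -0.53 to 0.21 and Cish from -0.55 to 0.02. Other genes that turned without 139 ranged from -2.41 to 0.32 (Jak2), -2.43 to 0.45 (Usp18), -3.49 to 0.022 (Ebi3), -4.10 to 0.28 (Il12a), -3.49 to 0.53 (Il23a), -4.48 to 1.31 (Csf3), -4.51 to 0.015 (Ifit1), -5.88 to 0.10 (Lcn2) and -5.94 to 0.87 (Saa3). Jak3 turned without 140 (-0.51 to 0.083) and Csf2 without 826 (-0.22 to 3.25). The cause was not tested, and a lone library was taken to have the spread of the other genotype. Depth is unknown, so what it limits cannot be given.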
